A study of Arabidopsis thaliana with 4 samples.

Results

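The introns described here were 379 mid-length introns of Arabidopsis thaliana with high measured inclusion levels in seedlings. They are the entries of the deposited rMATS table of intron retention events with an intron length of 86 to 299 bases, at least 20 junction reads in each of the 4 libraries, and a mean inclusion level of at least 0.7 over the 4 libraries. The inclusion level, from 0 to 1, estimates the share that keep the intron among transcripts that keep it or splice it at this 1 junction. It is computed from the reads that cross the edges of the intron and the reads that skip it, each scaled for the length of its form. The 379 introns, called mostly retained here, lay in 329 genes and were 379 of 4690 entries. Another 1675 entries met the same limits on length and reads with a lower mean level, and are called the other mid-length introns. Since the members were chosen by their measured inclusion levels, the levels themselves are given as a description.

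The libraries were polyA-selected mRNA of whole 7-day-old seedlings, which had grown untreated on Murashige and Skoog medium containing sucrose. 2 libraries (replicates 1 and 3) were labelled MAC3B Q77A/D81A-GFP mutant, and 2 (replicates 1 and 2) were wild type, accession Col-0. MAC3B is a U-box protein of the MOS4-associated complex, the plant counterpart of the Prp19 complex that works with the spliceosome. The labels give no promoter, no genetic background for the transgene and no line with unmutated MAC3B-GFP, so the amino acid changes and the added transgene cannot be told apart. MAC3B itself had 1147 and 947 CPM (counts scaled to library size) in mutant libraries, against 156 and 162 CPM in wild-type libraries, a 6.59-fold difference (edgeR, adjusted p = 8.41e-15), and these counts do not separate the transgene from the endogenous gene. Gene counts summed to 23936296 and 30105517 in mutant libraries and to 23436163 and 24245300 in wild-type libraries. The rMATS table names its libraries only as group 1 and group 2, with 2 libraries each and 755809 to 998815 junction reads in each library. Neither group is tied to a genotype there, so the inclusion levels are compared as group 1 and group 2. Whether replicate libraries stem from separate cultures is not given in the labels, so p-values measure only the spread between these samples.

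Introns are recognised at a donor site at the 5′ end, which most often begins with GT, and an acceptor site at the 3′ end, which ends with AG and is bound with the T-rich stretch before it by the U2AF proteins. In plants, intron retention is the most frequent form of alternative splicing. A retained intron in an untranslated region (UTR) leaves the coding sequence unchanged, whereas one in the coding region often brings a stop codon. A stretch that can be spliced out of the coding sequence or kept as coding sequence is known as an exitron.

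The members fell into several sequence types, and the first type shown is the introns whose ends lay in a direct repeat. In these, the bases around the donor recur around the acceptor, so that removing the intron leaves 1 copy of the repeat. A junction read can then be placed at several positions that give the same spliced sequence. The sequences run 5′ to 3′ on the strand of the gene, were read from RefSeq's copy of TAIR10, and show both copies of the repeat in capitals with the stretch between them in lower case. AT4G35940 (intron at chr4:17022681-17022788, plus strand) encodes an uncharacterized protein. ATI3C (chr1:27500608-27500754, plus strand) is annotated as a mucin. AT5G57120 (chr5:23123707-23123796, minus strand) is a nucleolar and coiled-body phosphoprotein. WAVE5 (chr4:10241948-10242064, minus strand) belongs to the SCAR family, which activates actin nucleation. SNC1 (chr4:9501710-9501910, minus strand) is an immune receptor with leucine-rich repeats. pEARLI4 (chr2:9008036-9008140, plus strand) is a phospholipase-like protein. GRP9 (chr2:1993787-1993909, plus strand) is a glycine-rich protein.
AT4G35940: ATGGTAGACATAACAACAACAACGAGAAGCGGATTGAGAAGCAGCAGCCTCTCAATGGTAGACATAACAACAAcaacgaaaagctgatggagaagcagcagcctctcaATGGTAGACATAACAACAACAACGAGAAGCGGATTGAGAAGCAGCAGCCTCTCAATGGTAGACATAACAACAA
ATI3C: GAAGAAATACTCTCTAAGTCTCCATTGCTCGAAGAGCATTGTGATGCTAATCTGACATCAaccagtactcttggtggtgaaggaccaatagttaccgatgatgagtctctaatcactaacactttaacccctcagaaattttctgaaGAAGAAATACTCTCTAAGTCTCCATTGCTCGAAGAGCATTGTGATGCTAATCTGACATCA
AT5G57120: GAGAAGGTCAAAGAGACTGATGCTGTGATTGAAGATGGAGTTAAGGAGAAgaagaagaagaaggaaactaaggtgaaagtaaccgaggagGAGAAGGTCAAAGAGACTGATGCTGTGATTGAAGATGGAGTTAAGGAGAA
WAVE5: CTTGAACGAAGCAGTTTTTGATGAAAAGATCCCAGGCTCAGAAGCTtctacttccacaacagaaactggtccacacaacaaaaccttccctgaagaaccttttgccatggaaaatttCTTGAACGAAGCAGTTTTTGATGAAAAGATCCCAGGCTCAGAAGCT
SNC1: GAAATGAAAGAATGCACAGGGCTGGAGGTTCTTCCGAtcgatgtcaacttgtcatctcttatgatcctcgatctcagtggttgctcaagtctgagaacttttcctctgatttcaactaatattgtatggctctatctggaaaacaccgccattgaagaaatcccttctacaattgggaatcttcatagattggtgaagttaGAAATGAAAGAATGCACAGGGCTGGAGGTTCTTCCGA
pEARLI4: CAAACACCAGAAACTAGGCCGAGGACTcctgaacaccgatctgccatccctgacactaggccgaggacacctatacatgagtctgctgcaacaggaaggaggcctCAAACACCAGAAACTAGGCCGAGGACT
GRP9: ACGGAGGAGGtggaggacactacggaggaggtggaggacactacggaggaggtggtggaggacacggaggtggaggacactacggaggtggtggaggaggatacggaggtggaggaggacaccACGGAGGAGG

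The second type is coding introns with no long repeat that were kept almost always and read through in frame. They are shown with the 6 donor bases and the 3 acceptor bases in capitals. SAC52 (chr1:4888767-4888937, plus strand) encodes a ribosomal protein of the large subunit. KASI (chr5:18775783-18775947, minus strand) is a condensing enzyme of plastid fatty acid synthesis. PCAP1 (chr4:10942949-10943125, plus strand) is a plasma-membrane associated cation-binding protein. UBQ11 (chr4:2588402-2588629, minus strand) and UBQ14 (chr4:1279312-1279539, minus strand) encode polyubiquitins, which are made as head-to-tail ubiquitin units. AT3G27770 (chr3:10287281-10287396, minus strand), a plant protein of no annotated function, is shown because it had the smallest p among the members, and its intron shifts the frame.
SAC52: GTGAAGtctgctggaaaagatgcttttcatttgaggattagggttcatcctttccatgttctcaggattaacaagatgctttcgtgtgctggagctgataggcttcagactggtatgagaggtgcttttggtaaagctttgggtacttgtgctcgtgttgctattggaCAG
KASI: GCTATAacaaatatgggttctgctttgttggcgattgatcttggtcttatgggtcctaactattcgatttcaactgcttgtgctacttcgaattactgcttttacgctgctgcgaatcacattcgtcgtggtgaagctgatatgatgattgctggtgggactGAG
PCAP1: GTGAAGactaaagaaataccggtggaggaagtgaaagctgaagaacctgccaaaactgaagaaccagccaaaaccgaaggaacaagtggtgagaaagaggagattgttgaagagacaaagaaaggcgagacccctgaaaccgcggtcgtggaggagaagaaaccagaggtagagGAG
UBQ11: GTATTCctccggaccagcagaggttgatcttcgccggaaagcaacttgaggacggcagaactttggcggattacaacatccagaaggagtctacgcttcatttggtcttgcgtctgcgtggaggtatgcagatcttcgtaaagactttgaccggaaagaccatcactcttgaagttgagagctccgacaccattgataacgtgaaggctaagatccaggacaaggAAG
UBQ14: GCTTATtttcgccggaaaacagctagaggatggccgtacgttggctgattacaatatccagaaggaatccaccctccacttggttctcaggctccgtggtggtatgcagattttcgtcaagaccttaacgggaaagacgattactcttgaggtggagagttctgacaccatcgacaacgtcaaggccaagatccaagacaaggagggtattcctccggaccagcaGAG
AT3G27770: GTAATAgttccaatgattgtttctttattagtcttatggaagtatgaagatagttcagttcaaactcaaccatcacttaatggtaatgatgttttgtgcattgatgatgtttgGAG

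The third type is introns of genes for splicing, flowering and the circadian clock, of which only the splice sites are shown, since most of them lie in UTRs. Intron bases are in capitals and exon bases in lower case. SR34a encodes a serine/arginine-rich splicing factor, and its longer (chr3:18332472-18332641) and shorter (chr3:18332493-18332641) introns on the plus strand share 1 acceptor. U2AF65A (chr4:17294431-17294703, minus strand) encodes the large subunit of U2AF, and a nested intron (chr4:17294604-17294703) shares its donor. FCA (chr4:9214283-9214486, minus strand) is an RNA-binding protein of the autonomous flowering pathway, and LNK1 (chr5:25672719-25672810, minus strand) is a clock-associated coactivator.
SR34a donor, longer intron: ttgGTTTGC
SR34a donor, shorter intron: ttgGTCTTA
SR34a acceptor, both introns: ATTCTCATGTGCAGt
U2AF65A donor, both introns: ttgGTAAGA
U2AF65A acceptor: CTCTTAAAATGCAGg
U2AF65A acceptor, nested intron: GTGCTGTTTTACAGc
FCA donor: gagGTAATG
FCA acceptor: TGGTGTGGGAGGAGa
LNK1 donor: cagGTTAGT
LNK1 acceptor: ACTTTCTGGTCTAGa

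Of the 329 genes, 289 held 1 member, 32 held 2, 6 held 3 and 2 held 4. Chromosomes 1, 2, 3, 4 and 5 held 110, 54, 71, 75 and 69 members. The mean level had a median of 0.903 over the members and of 0.111 over the other mid-length introns. In 118 members (31.1%) all 4 libraries had a level of 0.9 or more. The difference between the highest and the lowest library was under 0.1 in 162 members, with a median of 0.124 and a maximum of 0.651. The read depth behind a level was a mean of 111 reads per library at the median member (range 22.5 to 7929), close to the 105 reads of the other mid-length introns, and the intron length had a median of 129 bases, against 114 bases. No member lacked skipping reads in all 4 libraries. In 43 members 3 of the 4 libraries had none, in 66 members 2 had none, in 62 members 1 had none and in 208 members every library had some. A level of 1 in a library thus stands for a count of 0 skipping reads, which allows up to 3 such reads, and these limits cover counting error only.

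The highest levels belonged to introns with many inclusion reads, which follows in part because every member had skipping reads in some library. The SAC52 intron had 7945 and 9969 inclusion reads in group 1 libraries and 6802 and 6999 in group 2 libraries, with 1 skipping read in all. UBQ11 had 5 skipping reads in all, beside 7485 and 9362 inclusion reads in group 1 libraries and 5563 and 5953 in group 2 libraries. KASI had 1 skipping read in all. The spliced form of these 3 introns thus rests on 1 to 5 reads here, though annotated transcripts splice each of them. At the other end, the 108-base intron of AT4G35940 stood at the limit of 0.7, AT4G31200, a SWAP-domain RNA-binding protein, at 0.701 and AT1G54730, a membrane transporter of the major facilitator superfamily, at 0.7025. Just below the limit were AT3G27320, an alpha/beta-hydrolase, at 0.6995 and CAT3, a catalase, at 0.6975.

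PCAP1 and CA1 were the other members with the most reads. PCAP1 had levels of 0.993 and 0.995 in group 1 libraries and 0.990 and 0.993 in group 2 libraries, with 18 and 22 skipping reads in group 1 libraries and 33 and 23 in group 2 libraries. CA1, a chloroplast carbonic anhydrase, had levels of 0.893 and 0.8996 in group 1 libraries, against 0.927 and 0.923 in group 2 libraries, on 7040 reads per library on average. Retention of this last intron of CA1 (chr3:194892-195178) shifts the frame and adds a stop codon.

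By the annotated transcripts that splice them, more members lay in UTRs than in the coding region. An intron was called coding if any annotated transcript that splices it does so within its coding sequence, and otherwise 5′ UTR, 3′ UTR or noncoding. Transcripts that retain the intron play no part in this rule, so a UTR intron may be coding in a retained form, which was not counted. By this rule 178 of 379 members (47.0%, exact Clopper-Pearson 95% interval 41.9 to 52.1%) were UTR introns, against 321 of 1675 other mid-length introns (19.2%). Such intervals treat the introns as independent, although some overlap or share a gene. The 5′ UTR held 119 members (31.4%), against 245 others (14.6%), and the 3′ UTR held 59 members (15.6%), against 76 others (4.54%). Noncoding transcripts held 21 members (5.54%), against 22 others (1.31%). For 13 members (3.43%) and none of the others, no annotated transcript splices the intron. The first intron of the transcript was the member in 112 cases (29.6%), against 336 (20.1%) of the others.

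The coding introns differed in their annotated use. Transcripts are annotated both with the intron spliced out of the coding sequence and with the whole intron as coding sequence, as in an exitron, for 94 members (24.8%, interval 20.5 to 29.5%), against 192 others (11.5%). Coding introns that no transcript keeps as coding sequence made up 73 members (19.3%) and 1140 others (68.1%). Over all coding-region introns, read in the frame of a transcript that splices them, retention kept the frame with no stop codon in 73 of 167 members (43.7%), against 105 of 1332 others (7.88%). Of these, 72 members and 104 others are introns annotated as coding in both forms. This share thus largely restates that annotation and is not a separate result. It shifted the frame and met a stop in 49 members (29.3%), against 766 others (57.5%). It kept the frame with a stop in 30 members (18.0%), against 364 others (27.3%), and shifted the frame with no stop inside the intron in 15 members (8.98%), against 97 others (7.28%).

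The length of the introns coding in both forms was a multiple of 3 in 72 of 94 members (76.6%), against 104 of 192 others (54.2%). That these frames hold no stop follows from the annotation of the retained form. UTR introns, which lie outside the coding sequence of the transcripts that splice them, were a multiple of 3 in 56 of 178 members (31.5%) and 109 of 321 others (34.0%). The median level was 0.946 over the 94 members coding in both forms and 0.955 over the 13 with no annotated splicing transcript. It was 0.890 for coding introns kept by no annotated coding sequence, 0.885 in the 5′ UTR, 0.873 in the 3′ UTR and 0.830 in noncoding transcripts.

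**Figure D1:**
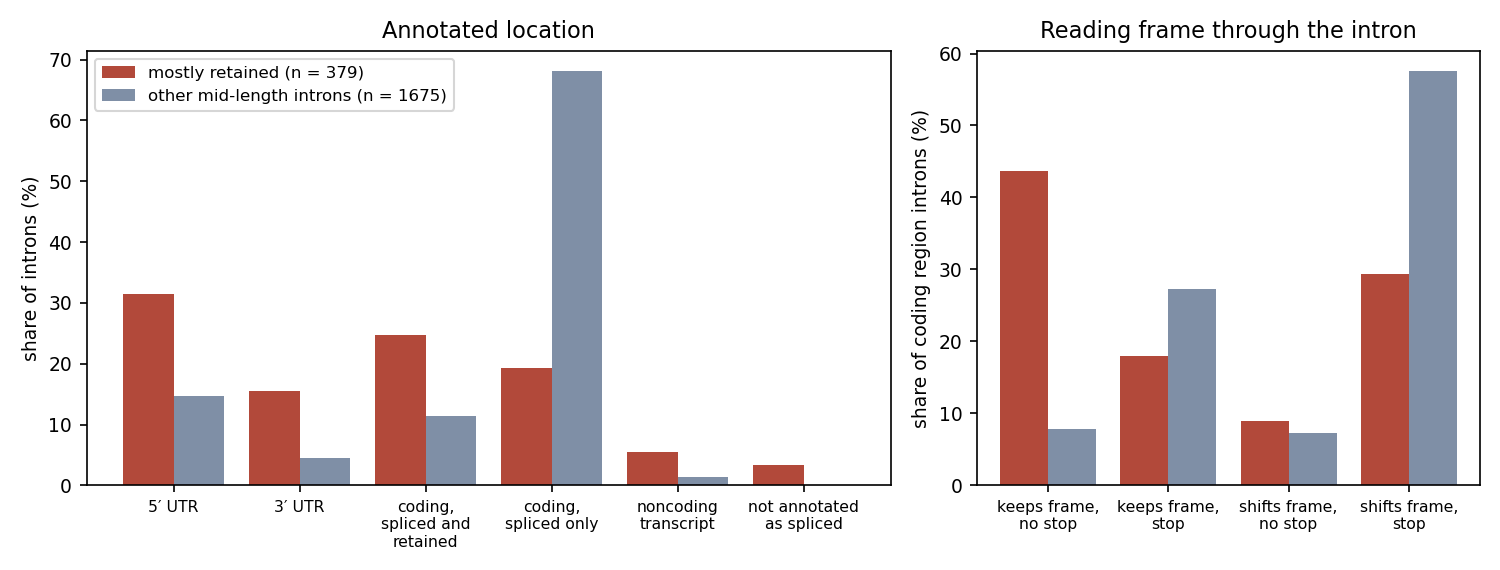
Share of introns (%) by annotated location (left, all introns) and by the effect of retention on the reading frame (right, coding-region introns only), for mostly retained introns (red) and other mid-length introns (grey). UTR introns and introns coding in both forms took larger shares of the mostly retained introns, and introns coding only when spliced took 19.3% of them, against 68.1% of the others.

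An exon annotated on the other strand overlapped 32 members (8.44%), against 35 others (2.09%), and 19 of the 21 noncoding members were such cases. The count table was made with no strand option and the strand setting of the rMATS run is not given in the sources used here, so reads of the 2 strands cannot be told apart in these 32. The intron of another entry overlapped 144 members (38.0%), against 303 others (18.1%). For 87 members (23.0%) such an entry lay below the limit of 0.7. Another annotated intron of the gene, listed as an entry or not, overlapped 194 members (51.2%), against 446 others (26.6%). An inclusion level sets the inclusion reads against 1 junction only, so that where introns overlap, reads from transcripts spliced at the other junction can count as inclusion.

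U2AF65A is an example. Its 273-base intron had levels of 0.780 and 0.754 in group 1 libraries and 0.791 and 0.871 in group 2 libraries. The nested 100-base intron, with the same donor and the acceptor closer to it, had levels of 0.346 and 0.310 in group 1 libraries and 0.260 and 0.252 in group 2 libraries. The longer intron thus met the limit of 0.7 while, by the level of the nested one, the first 100 of its bases were missing from most transcripts. In SR34a, the 149-base intron had levels of 1 and 1 in group 1 libraries and 0.907 and 0.923 in group 2 libraries, and the 170-base intron had levels of 0.750 and 0.561 in group 1 libraries and 0.675 and 0.880 in group 2 libraries. The donors lie 21 bases apart before 1 acceptor, and the 5′ UTR donor of the shorter intron scored at percentile 1.64 of annotated donors.

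Over all classes together, splice sites of the members had lower median scores than those of the other mid-length introns on both sides. Each site was scored by log-odds matrices built from all distinct annotated introns, 9 bases at the donor and 15 at the acceptor, and placed as a percentile among them. The median donor percentile was 31.7 in members and 41.3 in the others, and the median acceptor percentile was 29.9 in members and 44.8 in the others. The gap was widest for acceptors of introns coding in both forms, with medians of 15.7 in members and 48.1 in the others. UTR members had acceptor medians of 32.2 in the 5′ UTR and 39.4 in the 3′ UTR, against 45.2 and 54.0 in the others. Noncoding introns stood the other way, with donor medians of 57.0 in members and 48.0 in the others and acceptor medians of 43.3 in members and 33.7 in the others. Acceptors under the 10th percentile made up 24.8% of members and 13.3% of the others.

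**Figure D2:**
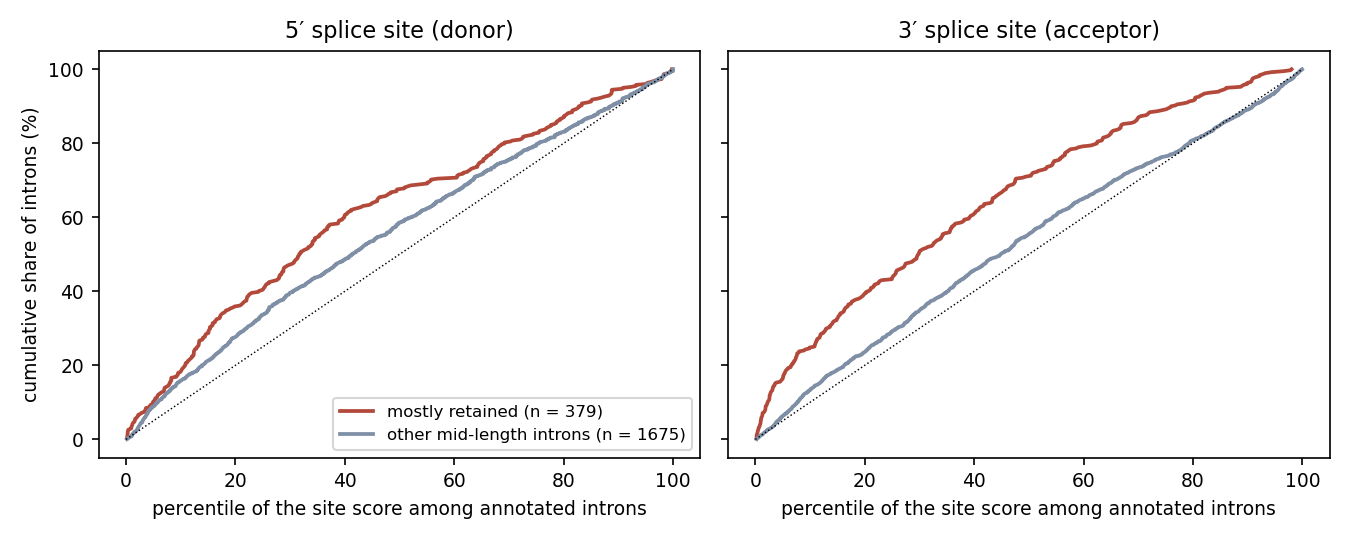
Cumulative share of introns (%) by the percentile of the donor score (left) and of the acceptor score (right) among annotated introns, for mostly retained introns (red) and other mid-length introns (grey), with the dotted diagonal marking annotated introns. The red curves lie above the grey ones over most of the range, with acceptor medians of 29.9 and 44.8.

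Base composition differed too, and the gap in intron GC content was widest for introns coding in both forms. Intron GC content had a median of 35.9% in members and 33.7% in the others, with 41.4% in members and 34.7% in the others among introns coding in both forms. The 50 bases of exon on either side had a median GC content of 42% in members and 43% in the others. The T content of the intron had a median of 37.3% in members and 40.4% in the others. The GT-AG ends, which most introns carry, were found in 360 members (94.99%) and 1633 others (97.5%). GC-AG ends were found in 14 members (3.69%) and 36 others (2.15%), and AT-AC ends in 5 members (1.32%) and 3 others (0.179%).

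All 5 AT-AC members belonged to the repeat type shown in the sequences above. A direct repeat of 10 bases or more at the ends was found in 18 members (4.75%) in 12 genes, against 3 others (0.179%), while the median repeat was 2 bases in both sets. The 18 repeats were 10 to 73 bases long, and all 18 introns had lengths that are multiples of 3. Transcripts of both forms with coding sequence are annotated for 15 of them, 1 lay in the 3′ UTR (emb2410) and 2 had no annotated splicing transcript (both GRP9). Their ends were GT-AG in 9, AT-AC in 5 and GC-AG in 4. Each of the 18 acceptors scored under the 10th percentile, with a median of 1.22, and the donors had a median of 2.30. The mean level of the 18 ranged from 0.7 to 0.996, with a median of 0.935. These introns were chosen for their repeats after the values had been seen.

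**Figure D3:**
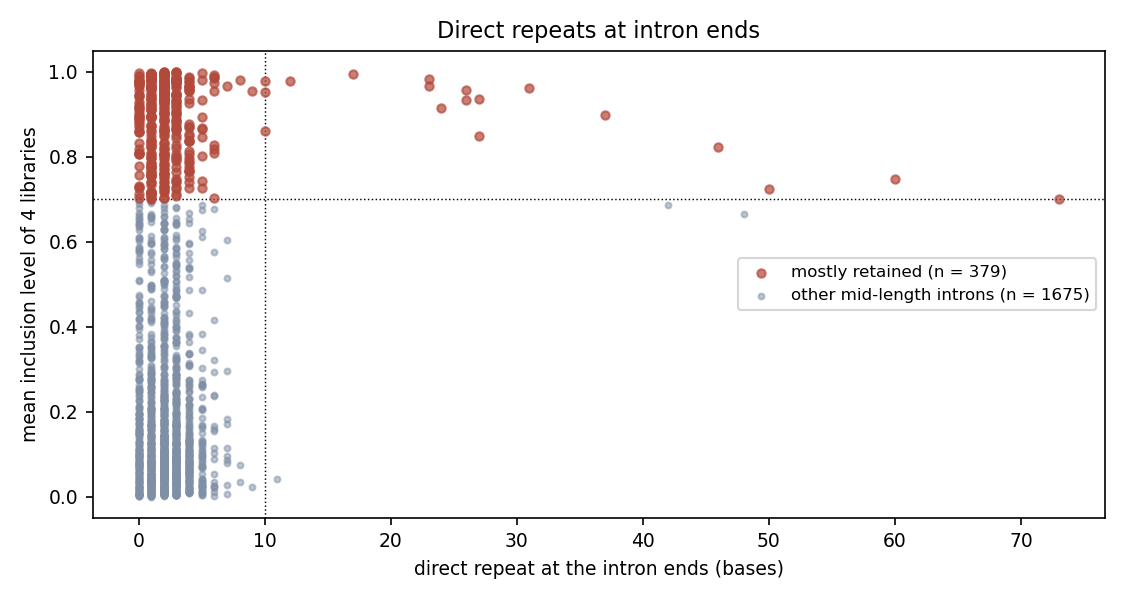
Mean inclusion level over the 4 libraries against the length of the direct repeat at the intron ends (bases), for mostly retained introns (red) and other mid-length introns (grey). Dotted lines mark a level of 0.7 and a repeat of 10 bases, and 18 red and 3 grey points lie at 10 bases or more.

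The repeat introns with the most skipping reads show how the levels varied. In AT5G57120, with a 50-base repeat, skipping reads numbered 71 and 85 in group 1 libraries and 55 and 63 in group 2 libraries, and levels were 0.653 and 0.731 in group 1 libraries and 0.766 and 0.753 in group 2 libraries. In the 105-base intron of pEARLI4, with a 27-base repeat, skipping reads numbered 37 and 36 in group 1 libraries and 34 and 36 in group 2 libraries, for levels of 0.853 and 0.875 in group 1 libraries and 0.821 and 0.848 in group 2 libraries. Skipping was thus seen in every library of these genes. A second pEARLI4 intron (chr2:9007826-9008035) ends directly before the first one starts, has a 26-base repeat and had levels of 0.963 and 0.951 in group 1 libraries and 0.872 and 0.949 in group 2 libraries.

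AT4G35940 held 3 members that share 1 acceptor and start 57 and 54 bases apart, which steps along the array seen in its sequence. The 108-base intron had levels of 0.545 and 0.817 in group 1 libraries and 0.657 and 0.781 in group 2 libraries. The 162-base intron had levels of 1 and 0.971 in group 1 libraries and 0.875 and 1 in group 2 libraries, and the 219-base intron was below 1 only in group 1 library 2, at 0.870. The 108-base intron, with the longest repeat, had the lowest mean level among these 3, which share their inclusion reads in part. The 162-base and 219-base introns had only 5 and 6 skipping reads in all, too few to place their levels in order.

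SNC1, with a 37-base repeat, had levels of 0.864 and 0.932 in group 1 libraries and 0.904 and 0.895 in group 2 libraries. ATI3C, with a 60-base repeat, had levels of 0.852 and 0.735 in group 1 libraries and 0.725 and 0.681 in group 2 libraries. IQD28, an IQ-motif protein of a calmodulin-binding family, had a 26-base repeat and levels of 0.973 and 0.955 in group 1 libraries and 0.935 and 0.969 in group 2 libraries. The groups overlapped in SNC1 and IQD28, and in ATI3C both group 1 levels lay above both group 2 levels, the nearest of them by less than the difference between the group 1 libraries.

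In GRP9 the libraries were uneven within both groups. Its 123-base intron with a 10-base repeat had 65 skipping reads in group 1 library 1 and 62 in group 2 library 2, and 0 in the remaining libraries of both groups. The levels were 0.665 and 1 in group 1 libraries and 1 and 0.782 in group 2 libraries, on 392 reads per library on average. The split ran across the groups, and leaving out group 2 library 2 made it the only member call of any fit with a library left out (edgeR quasi-likelihood test, adjusted p = 0.0306). The other 3 GRP9 members, which overlap it or each other, had 0 to 6 skipping reads in a library.

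The ubiquitin introns are repeats of another kind. Both are 228 bases long, or 76 codons, which is the length of a ubiquitin unit. The UBQ14 intron was 83.8% identical to the 228 bases after it, and the UBQ11 intron was 82.0% identical to the 228 bases before it. The junctions of UBQ14 were covered by 50 and 73 skipping reads in group 1 libraries and 42 and 76 in group 2 libraries, for levels of 0.958 and 0.956 in group 1 libraries and 0.965 and 0.939 in group 2 libraries. Since the polyubiquitin genes carry near-identical units, the share of these reads that came from another unit or another gene is uncertain.

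Inclusion was next compared between the groups. The test asked whether the ratio of inclusion to skipping reads differed between group 1 and group 2, by edgeR's quasi-likelihood test fitted on all 3363 entries with at least 20 reads in every library and adjusted over them by Benjamini-Hochberg. No member passed an adjusted p of 0.05, where 0% of all entries tested did. At an unadjusted p under 0.05 edgeR listed 33 members (8.71%), 15 higher and 18 lower in group 1, against 3.9% of all entries. Limma on the log2 odds gave 0 members at an adjusted p of 0.05, against 0% of all entries, and 37 (9.76%) unadjusted, against 4.73% of all entries.

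In the authors' deposited table, 66 members (17.4%) had a false discovery rate under 0.05, against 16.1% of all entries tested here. Of these, the authors' deposited table has 24 (6.33%) higher in group 1, against 7.11% of all entries, and 42 (11.1%) lower in group 1, against 9.01%. Levels of group 1 lay wholly above those of group 2 in 58 members (15.3%), against 15% of all entries, and wholly below in 71 (18.7%), against 17.5%. These shares are close to the background, and the median difference of group 1 minus group 2 over the members was -0.009.

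Libraries of 1 group differed about as much as libraries of different groups. The median absolute difference of level over the members was 0.0539 between the group 1 libraries and 0.0498 between the group 2 libraries, and 0.0506 to 0.0556 in the 4 pairs across groups. The chi-square statistic of inclusion and skipping reads, which averages 1 if 2 libraries differ by counting error only, averaged 5.02 and 3.46 within groups and 3.998 to 5.31 across groups. These averages rest on the 170 to 194 members with at least 5 expected reads of each kind in both libraries of a pair.

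**Figure D4:**
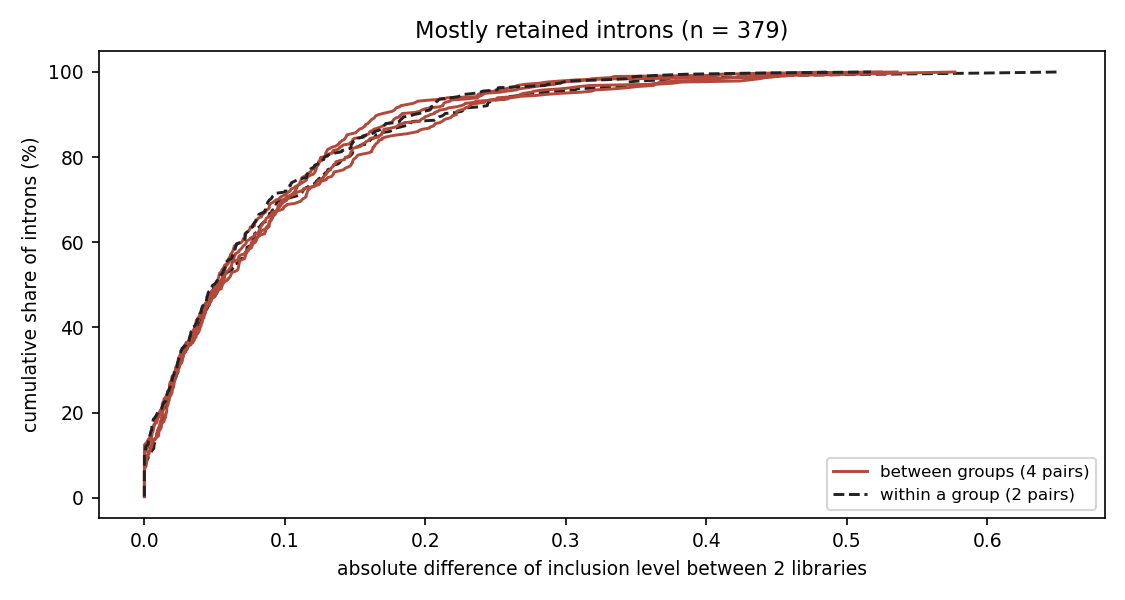
Cumulative share of the 379 mostly retained introns (%) by the absolute difference of inclusion level between 2 libraries, for the 4 pairs across groups (red, solid) and the 2 pairs within a group (black, dashed). The curves of both kinds run together, with medians of 0.0498 to 0.0556.

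The members named for the largest differences all had few reads, with means of 28.8 to 87 per library. Introns of other entries overlap those of WEEP, AT1G73350, AT5G06265, AT5G22690, AT5G61190 and OEX1, so reads spliced at another junction can count as inclusion there. An exon on the other strand overlaps the WAVE5 intron. LAG13, AUR2 and CCT had neither kind of overlap, and their overlap with other annotated introns is not given here. In WEEP, which encodes a SAM-domain protein, levels were 1 and 1 in group 1 libraries, with 0 skipping reads each, against 0.464 and 0.716 in group 2 libraries, with 11 and 4 skipping reads (chr3:2477424-2477540, edgeR unadjusted p = 0.0143, adjusted p = 0.999). In AUR2, an Aurora kinase of cell division, levels were 1 and 1 in group 1 libraries, against 0.758 and 0.817 in group 2 libraries (chr2:11036812-11036955, unadjusted p = 0.0273). WAVE5, with the 46-base repeat shown above, had levels of 0.978 and 0.876 in group 1 libraries, against 0.627 and 0.809 in group 2 libraries. All members named for the largest differences were picked only among those whose groups did not overlap. Their lack of overlap is thus no result. AT1G73350, an ankyrin repeat protein, had levels of 0.960 and 0.701 in group 1 libraries, against 0.498 and 0.657 in group 2 libraries. LAG13, a ceramide synthase of the LAG1 family, had levels of 0.888 and 0.869 in group 1 libraries, against 0.434 and 0.867 in group 2 libraries. In LAG13 a single group 2 library was low and the other one lay just below the group 1 libraries.

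The 5 largest differences in the other direction were of similar size. CCT, the Mediator subunit gene CENTER CITY, had levels of 0.519 and 0.683 in group 1 libraries, against 0.944 and 0.886 in group 2 libraries (chr4:202293-202395, 5′ UTR, unadjusted p = 0.0144, adjusted p = 0.999). AT5G06265, annotated as similar to a hyaluronan receptor, had levels of 0.475 and 0.644 in group 1 libraries, against 0.925 and 0.960 in group 2 libraries. AT5G22690, a TIR-NBS-LRR resistance gene, had levels of 0.569 and 0.911 in group 1 libraries, against 1 and 1 in group 2 libraries. By the same choice these groups did not overlap, with the group 1 libraries lower. AT5G61190, a putative endonuclease, had levels of 0.536 and 0.784 in group 1 libraries, against 0.9 and 0.944 in group 2 libraries. OEX1, an organellar exonuclease, had levels of 0.518 and 0.667 in group 1 libraries, against 0.750 and 0.920 in group 2 libraries. In the authors' deposited table, WEEP had a false discovery rate of 2.07e-06 and CCT one of 1.54e-05.

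**Figure D5:**
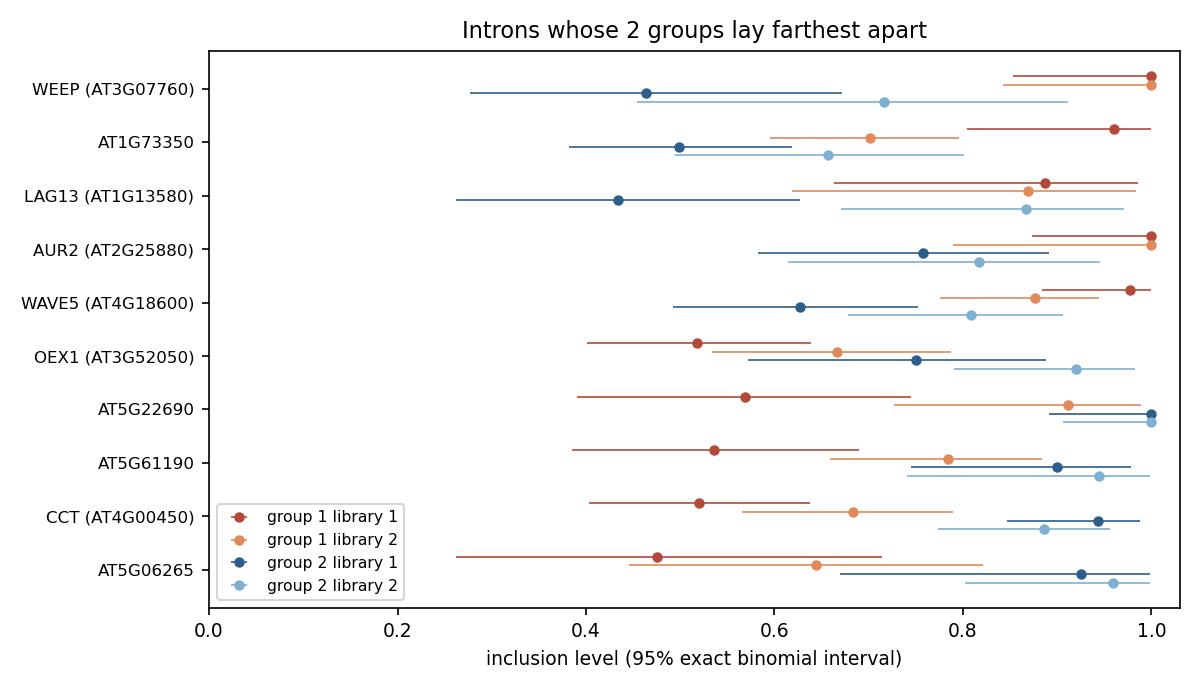
Inclusion level in each of the 4 libraries, with exact binomial 95% intervals, for the 10 introns whose groups lay farthest apart without overlap; group 1 libraries are red and orange, group 2 libraries dark and light blue. The intervals are wide, as for WEEP, where they span 0.277 to 0.672 in group 2 library 1.

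The smallest p among the members belonged to a small difference on many reads. AT3G27770 had 21 and 36 skipping reads in group 1 libraries, against 4 and 10 in group 2 libraries, beside 1810 to 1956 inclusion reads in every library. Its levels were 0.980 and 0.968 in group 1 libraries, against 0.996 and 0.991 in group 2 libraries, a log2 odds difference of -2.04 ± 0.52 (SE). EdgeR gave this intron an unadjusted p of 0.00293 and an adjusted p of 0.999. By these levels, the intron was kept in nearly every transcript in all 4 libraries. In the frame of an annotated transcript that splices it, retention shifts the frame and meets a stop codon. Transcripts that carry the whole intron as coding sequence are annotated too, and in their frame it holds no stop.

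Overlapping introns of 1 gene did not always stand in the same order between groups. The nuclear poly(A) polymerase gene nPAP held 4 members, whose levels were lower in both group 1 libraries for 3 of them. Its 138-base intron (chr4:15853754-15853891) had levels of 0.884 and 0.871 in group 1 libraries, against 1 and 0.979 in group 2 libraries, and its 106-base intron (chr4:15854212-15854317) had levels of 0.611 and 0.743 in group 1 libraries, against 0.824 and 0.877 in group 2 libraries. The 121-base intron, which overlaps the 106-base one, had levels of 0.758 and 0.669 in group 1 libraries and 0.744 and 0.792 in group 2 libraries, and there the groups overlapped. AT4G35785, an RNA-binding protein with an RRM domain, held 3 members with 1 shared acceptor. Its 111-base intron had levels of 0.956 and 0.957 in group 1 libraries, against 0.980 and 0.993 in group 2 libraries, while its 132-base intron had levels of 0.954 and 0.932 in group 1 libraries, against 0.808 and 0.866 in group 2 libraries. These 2 donors lie 21 bases apart, as in SR34a, and the groups stood in opposite order. None of these members passed an adjusted p of 0.05 in edgeR's test, and both genes were chosen after their values had been seen.

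Of 74 genes in 7 lists of splicing, decay, clock and flowering genes, 6 held a member and 14 held another mid-length intron. The 19 SR splicing factors held 2 members, both in SR34a, and the 7 U1 and U2AF protein genes held 1, in U2AF65A. The clock list of 18 genes held 2, in LNK1 and LNK2, and the flowering list of 11 genes held 2, in FPA and FCA. The lists of the MAC complex, of GRP and PTB RNA-binding proteins and of nonsense-mediated decay and the exon junction held none. By gene counts, 7 of the 74 genes were higher and 3 lower in mutant libraries at an adjusted p of 0.05 (edgeR). Of all genes, 1.68% were higher and 1.33% lower. The lists were chosen with earlier results of these data known, so these counts are no test of the lists. The 1 higher gene of the MAC complex list was MAC3B itself, whose counts do not separate the transgene from the endogenous gene.

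The list members outside SR34a and U2AF65A had levels between 0.701 and 1. LNK1 had levels of 0.950 and 0.973 in group 1 libraries, against 1 and 0.994 in group 2 libraries. LNK2, a clock coactivator like LNK1, had levels of 0.855 and 0.768 in group 1 libraries, against 0.720 and 0.701 in group 2 libraries. Their groups lay in opposite order without overlap. FPA, an RNA-binding protein of the autonomous flowering pathway, had levels of 0.764 and 0.825 in group 1 libraries, against 0.883 and 0.921 in group 2 libraries, for an intron (chr2:18028320-18028448) that keeps the frame. FCA had levels of 0.928 and 1 in group 1 libraries and 0.963 and 0.973 in group 2 libraries, and its 5′ UTR intron, whose acceptor is shown above, scored at percentile 2.81 of annotated acceptors. None of these introns passed an adjusted p of 0.05 in edgeR's test.

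The genes that hold the members were compared between mutant and wild type by their counts. In these bulk samples, fewer cells of a type and less RNA per cell cannot be told apart. Of the 329 genes, 320 had counts high enough for the test, and 6 (1.88%) passed edgeR's adjusted p of 0.05, against 3.01% of all 20483 genes tested. The median log2 fold change was -0.03 over the 320 and 0.00 over all genes, with 140 positive and 180 negative. Only UBQ11 was higher in the mutant, where 1.68% of all genes were, at 409 and 406 CPM in mutant libraries, against 318 and 324 CPM in wild-type libraries (log2 fold change 0.35 ± 0.07 SE, adjusted p = 0.00744).

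The other 5 were lower in the mutant, against 1.33% of all genes. BBD1, a nuclease of basal defence, had 284 and 301 CPM in mutant libraries, against 369 and 394 CPM in wild-type libraries (log2 fold change -0.38 ± 0.07 SE, adjusted p = 0.00455). CYP76C1, a cytochrome P450, had 14.7 and 17.0 CPM in mutant libraries, against 23.6 and 25.7 CPM in wild-type libraries (log2 fold change -0.63 ± 0.13 SE, adjusted p = 0.00936). Levels of the 2 genotypes did not overlap in either gene. The resistance genes RLM3 and RPP5 had log2 fold changes of -0.32 each, and FCA had 36.7 and 42.3 CPM in mutant libraries, against 54.2 and 51.0 CPM in wild-type libraries (log2 fold change -0.41 ± 0.10 SE, adjusted p = 0.0263). RLM3, RPP5 and SNC1 lie in clusters of related genes, and reads shared with paralogs make their values uncertain. The UBQ11 counts may likewise hold reads of other polyubiquitin genes, which carry near-identical units. Without wild-type replicate 1 or 2 none of the 6 passed (adjusted p 0.0657 to 0.426), and without mutant replicate 1 FCA did not pass (adjusted p = 0.0633).

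A deposited intron score named by genotype could not serve for the members themselves, since none of the 379 introns, nor any of the 4690 entries, overlapped its 79373 introns. Of other introns of the same genes, 944 in 205 genes had a score above 0 in at least 1 library. Limma on log2(score + 1) gave 0 at an adjusted p of 0.05, against 0% of 41390 introns, and 24 (2.54%) at an unadjusted p under 0.05, against 1.79%. The median difference of mutant minus wild type was 0.12 over these introns and 0.18 over all introns tested. These are introns next to the members and say nothing of the members' own retention.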

How the data were processed

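The members and gene lists were chosen with earlier results of these data known. Gene counts were deposited as raw counts, made with featureCounts 2.0.1 on paired reads over TAIR10 exons with no strand option, per the file headers. HISAT2 2.2.0, STAR 2.7.9a and DESeq2 1.30.1 are named per the submitters' processing notes, with no file tied to an aligner, and the rMATS version is not given in the sources used here. The authors deposited the rMATS output with a p-value and false discovery rate per entry, a level difference (a score from -1 to 1) and, as other values, junction reads and inclusion levels joined by commas. The deposited intron score is a coverage-like signal whose making is not stated per the file headers, and the log2 values the authors made from it were not used. The authors' own DESeq2 table of log2 fold changes, mean signal, test score and p-values, and the deposited exon lengths (other values), were not used.

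Inclusion levels were recomputed as inclusion reads over the inclusion form length, divided by that value plus skipping reads over the skipping form length, and matched the deposited levels within 0.0005. Inclusion was tested with edgeR 4.0.16 in R 4.3.3 (glmQLFit and glmQLFTest), with terms for library and form and the form by group interaction, and with limma 3.58.1 on log2 odds (0.5 added to each count) as an alternative. Gene counts were tested with edgeR (filterByExpr, TMM, genotype as the only term), with DESeq2 1.42.0 as an alternative, and intron scores with limma on log2(score + 1). Benjamini-Hochberg adjustment ran over all features tested. The plan assumed that members have an intron score; as none has, other introns of their genes were tested in their place.

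Annotation, frames and sequences came from the RefSeq TAIR10.1 copy of the TAIR10 genome, using Python 3.11.15 (numpy 2.4.6, pandas 2.3.3, scipy 1.17.1, Biopython 1.88). Each test was checked on simulated data, in which the inclusion test missed most small shifts and the score test missed most shifts of every size, so a count of 0 from either does not show that levels did not differ.

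The named introns are the 5 largest differences in each direction among members without overlap of the groups, the 4 with the most reads, the 3 highest and 3 lowest levels, the 2 nearest below the limit, and members in the gene lists or in genes past the count test. The introns with repeats, UBQ14, nPAP, AT4G35785 and AT3G27770 were added after their values were seen. Alternatives were DESeq2, RLE size factors, library totals, other filters, pseudocounts and read minimums, other limits on the members, and each library left out in turn.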

Additional observations from a re-analysis of the deposited data

How the results depend on the processing

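No paired analysis was possible because the genotypes share only replicate number 1 and the rMATS groups carry no sample numbers. The count of members whose inclusion differed between the groups (0) was 66 by the false discovery rate in the authors' deposited table, and ranged from 0 to 1 with a library left out; a read minimum of 50, no read minimum and limma gave 0. The cause of the gap between the tests was not tested. The count of member genes that differed between mutant and wild type (6) was 14 with no filter on low counts, and ranged from 0 to 30 with a library left out, with 0 without either wild-type library, 13 without mutant replicate 1 and 30 without mutant replicate 3. The count of other introns of these genes with a different score (0) ranged from 0 to 141 with a column left out, with 141 without the first mutant column. With 1 library left in a genotype or group, that library was assumed to vary like the others. Shares were also taken with a limit of 0.8 or 0.6, 50 reads, 1 intron per gene, or no exon on the other strand. UTR introns then made up 44.0 to 49.6%, introns coding in both forms 23.1 to 29.2% and repeat introns 3.65 to 5.73%. Frame-keeping introns with no stop made up 42.9 to 51.2% of coding-region introns. These settings were chosen after seeing the data and draw on largely the same introns, so they are no independent check. Depth limits single levels, which rest on as few as 20 reads in a library.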
